A study of Mus musculus with 9 samples.

Results

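The Pim kinases Pim1, Pim2 and Pim3 and 4 further genes known as targets of STAT transcription factors, Myc, Bcl6, Bcl2l1 and Mcl1, were followed in cultured mouse pancreatic stellate cells. The members were taken by gene symbol from the deposited count table, which held all 7 among its 17156 symbols, and all 7 passed the filter on low counts, as did 13613 genes in all. Stellate cells are fibroblast-like cells of the pancreas that store vitamin A at rest and lay down matrix when activated. Total RNA depleted of ribosomal RNA was sequenced from wild-type C57BL/6J stellate lines after 4 days in 1 of 3 media, with 3 libraries each. The groups were medium conditioned by pancreatic tumour organoids with 500 nM AZD1480, an inhibitor of JAK kinases (CM-JAKi), the same conditioned medium alone (CM), and control medium (MG-CM), which the labels describe as DMEM with 5% FBS and also as conditioned by Matrigel, the gel in which organoids grow. The serum content of the organoid medium and the addition of a solvent to the groups without inhibitor are not given in the labels. Replicate 1 of each group was the line PSC4, and replicates 2 and 3 were PSC5-I and PSC5-II, both labelled as the line PSC5. In CM and CM-JAKi a separate source of organoid medium served each replicate number. PSC4 and PSC5 libraries of these groups thus differ in both line and medium source, while replicates 2 and 3 differ in source under 1 line label. The 3 cultures from 2 named lines stand for all stellate cells.

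Cytokine receptors of the interleukin 6 family switch on JAK kinases, which phosphorylate STAT proteins so that these enter the nucleus and bind the palindromic DNA motif TTCNNNGAA. Pim genes are among the classical targets of this pathway. Their products are serine/threonine kinases that are active as soon as they are made, so the amount of mRNA matters for their activity, and they favour growth and survival by phosphorylating proteins such as BAD and p27. MYC drives ribosome production and growth, BCL6 is a transcriptional repressor that binds sites similar to those of STAT proteins, and BCL-XL (from Bcl2l1) and MCL1 hold back the mitochondrial pathway of cell death.

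The windows around the transcription starts of Bcl6, Pim1 and Pim3 are shown because they differ in the motif that STAT proteins bind. RefSeq sequences of GRCm38.p6, covering 250 bases before and 50 bases after a start, were at hand for 6 of the members in 10 windows. In the windows of Bcl6, read 5′ to 3′ on the minus strand, capitals mark matches to TTCNNNGAA. In those of Pim1 and Pim3, on the plus strand, they mark the GC box GGGCGG on either strand, where each match was counted on its own.
Bcl6, chr16:23988803-23989102: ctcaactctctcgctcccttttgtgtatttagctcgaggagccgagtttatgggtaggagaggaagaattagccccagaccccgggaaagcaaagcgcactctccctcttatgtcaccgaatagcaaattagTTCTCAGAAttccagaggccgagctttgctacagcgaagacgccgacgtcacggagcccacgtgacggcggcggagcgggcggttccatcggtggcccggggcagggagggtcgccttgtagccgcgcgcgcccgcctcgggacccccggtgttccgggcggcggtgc
Bcl6, chr16:23981234-23981533: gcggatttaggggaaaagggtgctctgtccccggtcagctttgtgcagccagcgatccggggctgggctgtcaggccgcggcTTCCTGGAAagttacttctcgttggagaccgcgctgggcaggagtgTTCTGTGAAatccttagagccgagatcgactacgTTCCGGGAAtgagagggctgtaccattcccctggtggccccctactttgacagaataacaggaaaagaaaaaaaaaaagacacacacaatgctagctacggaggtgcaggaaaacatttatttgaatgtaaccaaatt
Pim1, chr17:29490535-29490834: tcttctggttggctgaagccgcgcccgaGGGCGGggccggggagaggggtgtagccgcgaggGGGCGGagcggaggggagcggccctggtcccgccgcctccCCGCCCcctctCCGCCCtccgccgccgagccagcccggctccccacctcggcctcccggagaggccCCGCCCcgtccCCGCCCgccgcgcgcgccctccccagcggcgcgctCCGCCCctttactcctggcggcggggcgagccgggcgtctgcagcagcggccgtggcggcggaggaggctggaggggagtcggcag
Pim3, chr15:88861944-88862243: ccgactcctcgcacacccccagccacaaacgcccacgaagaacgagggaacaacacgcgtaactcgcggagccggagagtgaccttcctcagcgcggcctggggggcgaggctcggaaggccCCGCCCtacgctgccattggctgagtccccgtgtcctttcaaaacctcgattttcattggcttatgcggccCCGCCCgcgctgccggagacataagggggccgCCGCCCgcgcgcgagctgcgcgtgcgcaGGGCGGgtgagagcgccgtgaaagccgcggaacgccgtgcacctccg

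The first Bcl6 window held 1 STAT motif, TTCTCAGAA, which began 118 bases before the start. The second held 3, TTCCTGGAA, TTCTGTGAA and TTCCGGGAA, which began 168, 122 and 88 bases before it. No match to TTCNNNGAA was found in the windows of Pim1, Pim2, Pim3, Bcl2l1 and Mcl1. Of all 32851 windows of this length in the table, from 27025 genes, 8.3% held this motif. The same motif with 4 free bases in the middle was found in 1 of the Bcl2l1 windows and in 6.95% of all windows. GC boxes numbered 7 in the first Pim1 window, 4 in Pim3, 2 in the first Bcl6 window and 1 each in Pim2 and Mcl1, and 35.7% of all windows held at least 1. The E-box CACGTG, which MYC binds with its partner MAX, occurred once in the first Bcl6 window and once in the second Pim1 window, at chr17:29492835-29493134, against 7.15% of all windows. These matches describe letters in short windows, and the windows come from a newer build than those named for the counts.

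The libraries held 25625806 to 32466018 counts, with 15678 to 15944 genes detected. The members had 130 to 8440 counts per library, so the counting error of a single value was 1.09% to 8.77%, and Pim2 was the member with the fewest counts. Levels are CPM, counts relative to library size after scaling by the trimmed mean of M-values (TMM), and changes are log2 fold changes with their standard errors, from edgeR's quasi-likelihood F-test over all 9 libraries. A change was called at a Benjamini-Hochberg adjusted p under 0.05 over 13613 genes. In a bulk culture, fewer cells that express a gene and less RNA per cell cannot be told apart. All 11 listed stellate and fibroblast markers were detected, with a summed level of 7146 to 8059 CPM in CM-JAKi, 5198 to 8250 CPM in CM and 6212 to 6877 CPM in MG-CM, although the stellate marker Des reached at most 3.32 CPM. In CM-JAKi against CM 2 of them rose, Col1a1 and Col1a2, and 1 fell, Dcn, where 10.1% of all genes were called higher and 8.93% lower. With the replicate number as a block 5 rose and 1 fell (18.6% and 15.6% of all genes). In CM against MG-CM edgeR called 1 higher and 1 lower (4.85% and 5.39%). Over all libraries Dcn ranged from 213 to 4609 CPM, Acta2 from 8.72 to 664 CPM and Lum from 3.62 to 110 CPM. Pdgfrb ranged from 396 to 742 CPM.

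Marker genes of other cell types were low but not even between groups. Of 10 leukocyte markers 7 were in the table, and their sum was 15.6 to 32.3 CPM in CM-JAKi, 33.7 to 118 CPM in CM and 22.6 to 34.8 CPM in MG-CM, nearly all from Cd14, which fell in CM-JAKi against CM (log2 change -1.74 ± 0.50, edgeR adjusted p = 0.041). That call was lost in 7 of the 9 omissions of a library and kept without CM-JAKi replicate 1 or CM replicate 2. The pan-leukocyte gene Ptprc had 4 counts in all libraries together. The 8 ductal markers summed to 15.2 to 30.8 CPM in CM-JAKi, 22.1 to 29.99 CPM in CM and 21.5 to 25.96 CPM in MG-CM, and the epithelial gene Epcam had 24 counts in all. Of the 4 ductal markers tested 2 fell in CM-JAKi against CM, Spint1 and Muc1 (median of the 4, -1.29). In this comparison 8.93% of all genes were called lower and 10.1% higher. Another of the 4 was higher with the replicate block and by the unadjusted threshold. With a library left out, 1 was lower without CM replicate 1, 2 or 3 or CM-JAKi replicate 2 or 3. Leaving out CM replicate 3 also gave 1 higher. The 6 endothelial markers summed to 7.97 to 15.7 CPM in CM-JAKi, 2.16 to 2.71 CPM in CM and 4.85 to 6.17 CPM in MG-CM. Over all libraries Emcn ranged from 0 to 12.8 CPM, while Tek, the next highest, reached at most 2.90 CPM and the endothelial cadherin Cdh5 0.521 CPM. Of the 4 endothelial markers tested Emcn and Tek rose in CM-JAKi against CM (median of the 4, 0.58), with 1 higher without CM replicate 1 or CM-JAKi replicate 2 or 3. The same 2 genes fell in CM against MG-CM, where 5.39% of all genes were called lower. There 1 was lower without replicate 1 of MG-CM or of CM and 0 without MG-CM replicate 2. In CM-JAKi against MG-CM edgeR called 1 of the 4 higher and 0 lower, and DESeq2 called 1 higher and 1 lower. Of 6 acinar markers 4 were in the table, with sums of 5.69 to 7.81 CPM in CM-JAKi, 9.63 to 14.04 CPM in CM and 7.85 to 8.56 CPM in MG-CM. The 1 tested, Cela1, fell in CM-JAKi against CM, a call that was lost in each of the 9 omissions. The part of these markers in the results below was not tested.

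**Figure D1:**
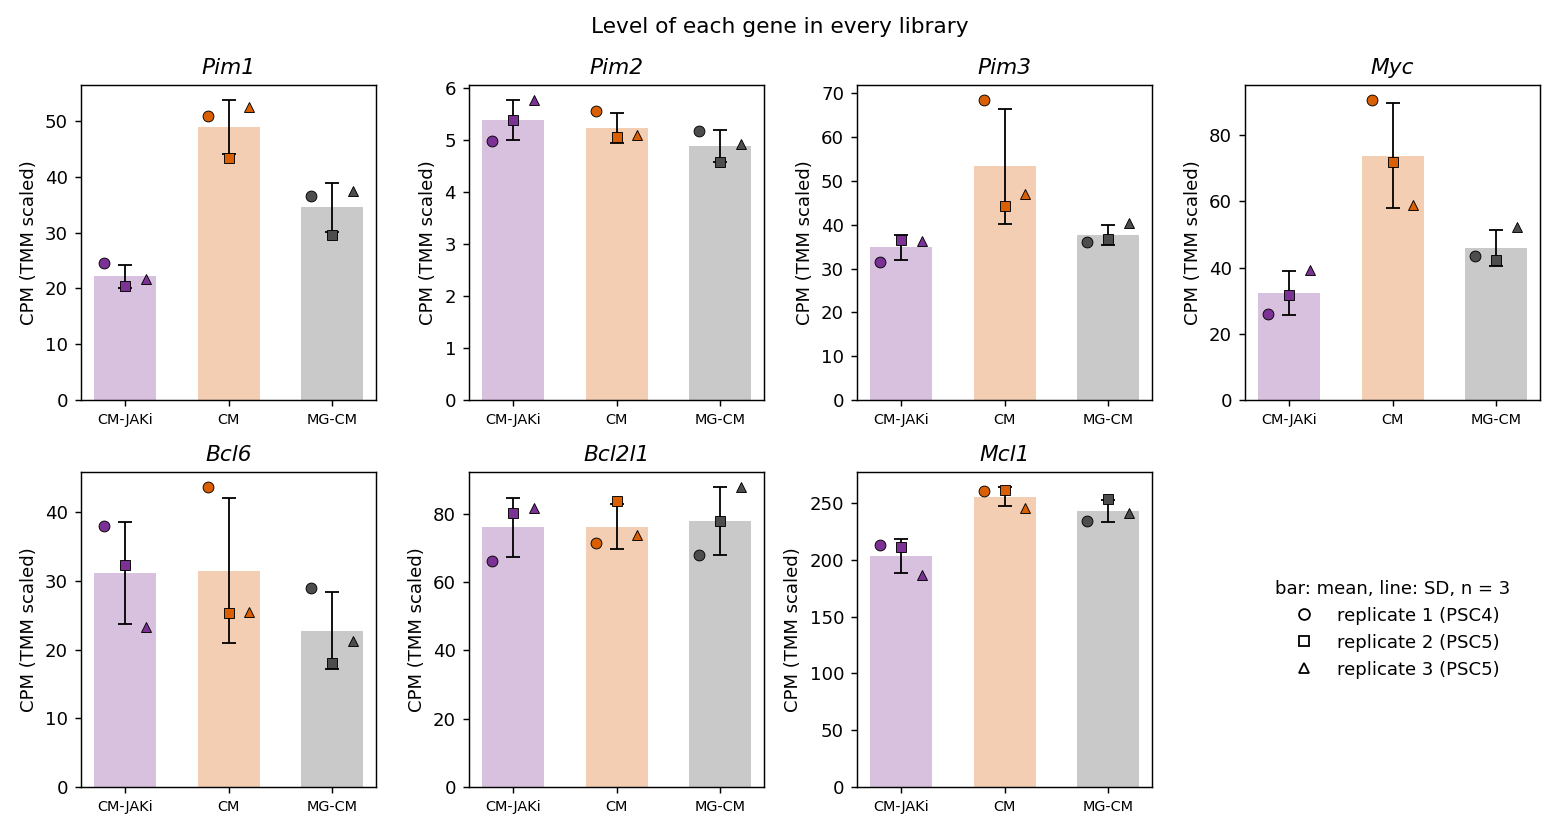
Level of each of the 7 genes, in TMM-scaled CPM (vertical axes, from 0), in the libraries of CM-JAKi, CM and MG-CM; bars are means, lines are SD (n = 3) and symbols are the replicates. Pim1 and Myc are high in CM and lowest in CM-JAKi, while Pim2, Bcl6 and Bcl2l1 have overlapping values in all groups.

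Cells in organoid medium were set side by side with and without the JAK inhibitor. Pim1, Myc, Pim3 and Mcl1 fell, by between 0.33 and 1.19 on the log2 scale, and the values of Pim2, Bcl6 and Bcl2l1 overlapped between the groups. The 4 members called lower stand against 8.93% of all genes called lower in this comparison, and 10.1% of all genes were called higher. The replicate block (15.6% of genes lower), DESeq2 (11.7%) and the unadjusted threshold of 0.05 (16.2%) each gave 4 members lower too. The same 4 had groups that did not overlap, against 18.3% of all genes. The median change of the 7 members was -0.33, and that of all genes was 0.01.

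Pim1 was at 24.5, 20.5 and 21.6 CPM in CM-JAKi replicates 1, 2 and 3, against 50.9, 43.4 and 52.5 CPM in CM. Every inhibited library was below every library of CM alone, and the replicates within each group were close. The log2 change was -1.14 ± 0.13 (adjusted p = 0.001), a level 0.454 times that in CM with a 95% interval of 0.372 to 0.553. The changes within the numbered pairs were -1.05, -1.08 and -1.28. Pim1 was called lower in all 17 other fits that were made, including each that left out 1 library.

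Myc was at 26.1, 31.9 and 39.3 CPM in CM-JAKi, against 90.7, 71.9 and 59.0 CPM in CM. The groups did not overlap, and the replicates ran in opposite order in the 2 media: PSC4 was lowest with the inhibitor and highest without it. The log2 change was -1.19 ± 0.19 (adjusted p = 0.00548), 0.439 times the level in CM with a 95% interval of 0.325 to 0.592. Within pairs it was -1.79 in PSC4 and -1.17 and -0.59 in PSC5-I and PSC5-II, and the difference between lines was not tested. Leaving out any single library kept the call. Leaving out all 3 libraries of replicate 2 ended it (adjusted p = 0.117).

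Pim3 was at 31.5, 36.7 and 36.4 CPM in CM-JAKi, against 68.5, 44.3 and 47.1 CPM in CM. The PSC4 library in CM stood above the other 2 of its group, and the groups did not overlap. The log2 change was -0.61 ± 0.16 (adjusted p = 0.0309), 0.653 times the level in CM with a 95% interval of 0.508 to 0.84. Within pairs it was -1.12 in PSC4 and -0.27 and -0.37 in PSC5-I and PSC5-II. Without CM replicate 1 the change was -0.40, still called (adjusted p = 0.0423). The call was lost without CM-JAKi replicate 1, 2 or 3 (adjusted p = 0.069, 0.0766 and 0.0674).

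Mcl1 was at 213, 211 and 186 CPM in CM-JAKi, against 261, 262 and 246 CPM in CM. The change was small but the replicates were close, and the groups did not overlap. The log2 change was -0.33 ± 0.08 (adjusted p = 0.0291), 0.796 times the level in CM with a 95% interval of 0.697 to 0.908. It was lost without CM replicate 1 or 2 (adjusted p = 0.0671 and 0.065) and without CM-JAKi replicate 2 or 3 (0.0721 and 0.0853). With library size alone as the scaling, where the median of all genes moved to 0.10, Mcl1 changed by -0.23 and was not called (adjusted p = 0.104).

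The other 3 members were not called. Bcl6 was at 38.0, 32.3 and 23.2 CPM in CM-JAKi, against 43.7, 25.3 and 25.5 CPM in CM, so PSC4 was highest in both media and the groups overlapped. Its level was 0.991 times that in CM with a 95% interval of 0.645 to 1.52, which leaves room for a change in either direction (adjusted p = 0.977). Pim2 was at 4.99, 5.39 and 5.76 CPM in CM-JAKi, against 5.56, 5.05 and 5.09 CPM in CM, and its ratio of 1.03 had an interval of 0.819 to 1.29 (adjusted p = 0.873). Bcl2l1 was at 66.0, 80.1 and 81.7 CPM in CM-JAKi, against 71.3, 83.7 and 73.6 CPM in CM, with a ratio of 0.996 and an interval of 0.822 to 1.21 (adjusted p = 0.979). For Pim2 and Bcl2l1 the interval does not reach the ratio of 0.653 found for Pim3.

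**Figure D2:**
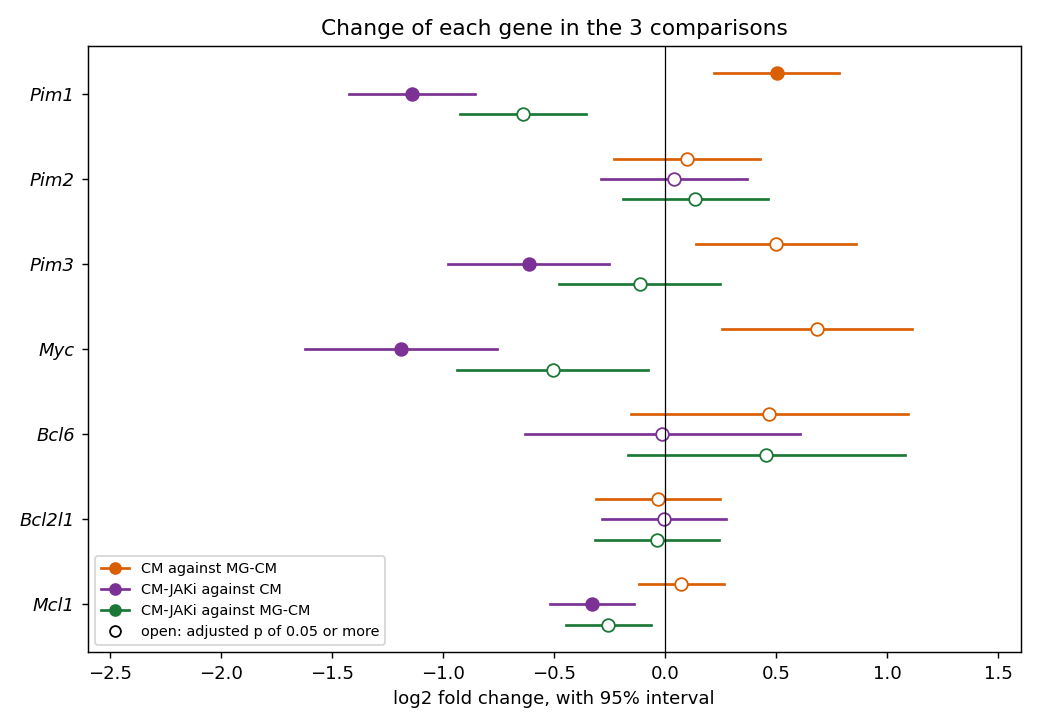
Log2 fold change (horizontal axis) of each gene in the 3 comparisons, with its unadjusted 95% interval; filled points have an adjusted p under 0.05. In CM-JAKi against CM the points of Pim1, Myc, Pim3 and Mcl1 are filled and lie below 0, and in CM against MG-CM only that of Pim1 is filled.

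Organoid medium was set against control medium in the cells without inhibitor. Pim1 rose, while Myc, Pim3 and Bcl6 had higher means in CM without a call. So had Pim2 and Mcl1, by 0.10 and 0.07 on the log2 scale. The 1 member called higher stands against 4.85% of all genes called higher, while 5.39% were called lower. With the replicate block 2 members were higher (11.6% of all genes), and DESeq2 (8.23%) and the unadjusted threshold (13.9%) gave 3. The groups of 3 members, Pim1, Pim3 and Myc, did not overlap, against 16.0% of all genes with every CM library above every MG-CM library. The median change was 0.47 for the members and 0.01 for all genes.

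Pim1, at the CM levels given above, was at 36.6, 29.5 and 37.5 CPM in MG-CM. All CM libraries were above all MG-CM libraries. It rose 1.42-fold, with a 95% interval of 1.17 to 1.72 (log2 change 0.50 ± 0.12, adjusted p = 0.0376), and by 0.47, 0.56 and 0.48 within pairs. With the replicate number as a block the adjusted p was 0.00502. The call was kept without CM replicate 2 or CM-JAKi replicate 1. It was lost when MG-CM replicate 1, 2 or 3 was left out (adjusted p = 0.0608, 0.129 and 0.0623). The same held without CM replicate 1 or 3 (0.104 and 0.0975) and with library size alone (0.0527). It was also lost without CM-JAKi replicate 2 or 3 (0.0553 and 0.0593), which enter only through the filter, the scaling, the shared spread and the adjustment.

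Myc averaged 73.8 ± 15.9 CPM in CM and 46.0 ± 5.42 CPM in MG-CM (SD, n = 3), where it was at 43.4, 42.4 and 52.3 CPM in replicates 1, 2 and 3. It was higher in CM in 3 of 3 pairs, by 1.06, 0.76 and 0.17, and missed the threshold (log2 change 0.68 ± 0.19, adjusted p = 0.0536). It was called with the replicate block (adjusted p = 0.0491) and by DESeq2 (0.00989), and without CM replicate 3 (0.0398) or CM-JAKi replicate 1 (0.0399). Pim3 averaged 53.3 ± 13.2 CPM in CM and 37.7 ± 2.33 CPM in MG-CM, with MG-CM libraries at 36.0, 36.7 and 40.4 CPM. Its change of 0.50 ± 0.16 was not called (adjusted p = 0.0816, 0.0374 by DESeq2), and was 0.28 without CM replicate 1.

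Bcl6 was at 28.9, 18.0 and 21.3 CPM in MG-CM. Each CM library was above the MG-CM library of its own number, but the groups overlapped. PSC4 was the highest library in each of the 3 media. The change was 0.47 ± 0.27 without a call (adjusted p = 0.306, 0.0545 with the replicate block), and it was 0.16 without CM replicate 1. Mcl1 was at 235, 254 and 242 CPM in MG-CM and changed by 0.07 ± 0.08 (adjusted p = 0.619), Pim2 was at 5.18, 4.57 and 4.93 CPM and changed by 0.10 ± 0.14 (adjusted p = 0.71), and Bcl2l1 was at 68.0, 77.8 and 87.9 CPM and changed by -0.03 ± 0.12 (adjusted p = 0.898). The 95% intervals of these 3 were ratios of 0.922 to 1.2, 0.852 to 1.34 and 0.807 to 1.19.

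The comparison of CM-JAKi with MG-CM sets inhibited cells in organoid medium beside cells in control medium. It shares its libraries with the comparisons above, so its values are given side by side with theirs and not as separate evidence. EdgeR called 0 of the 7 members in either direction, where 0.720% of all genes were called lower and 0.286% higher. The unadjusted threshold gave 3 members lower (5.31% of all genes), DESeq2 gave 2 (2.19%) and the replicate block gave 1 (2.40%). Pim1, Myc and Mcl1 were lower in CM-JAKi without overlap of the groups, which held for 8.24% of all genes. Pim1 averaged 22.2 ± 2.06 CPM in CM-JAKi and 34.5 ± 4.39 CPM in MG-CM (SD, n = 3), a log2 change of -0.64 ± 0.13 (adjusted p = 0.0586), and -0.58, -0.53 and -0.79 within pairs. It was called lower with the replicate block (0.00812), by DESeq2 (0.000525) and without MG-CM replicate 2 (0.0473). Mcl1 averaged 204 ± 15.1 CPM in CM-JAKi and 243 ± 9.67 CPM in MG-CM, a change of -0.26 ± 0.08 that DESeq2 alone called (adjusted p = 0.28, 0.0424 by DESeq2). Myc averaged 32.4 ± 6.61 CPM in CM-JAKi and 46.0 ± 5.42 CPM in MG-CM (log2 change -0.51 ± 0.19, adjusted p = 0.358).

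Pim3, Pim2, Bcl6 and Bcl2l1 had overlapping values in CM-JAKi and MG-CM. Pim3 averaged 34.8 ± 2.88 CPM in CM-JAKi and 37.7 ± 2.33 CPM in MG-CM, a ratio of 0.924 with an interval of 0.718 to 1.19 (adjusted p = 0.894). Bcl6 averaged 31.2 ± 7.45 CPM in CM-JAKi and 22.7 ± 5.58 CPM in MG-CM, higher in 3 of 3 pairs by 0.39, 0.84 and 0.13, and was not called (adjusted p = 0.64). The order of mean levels was thus CM, MG-CM, CM-JAKi for Pim1, Myc, Pim3 and Mcl1, where edgeR without the block called no difference between CM-JAKi and MG-CM although Pim1 was called with it and Pim1 and Mcl1 by DESeq2, and CM, CM-JAKi, MG-CM for Bcl6, where no difference was called.

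**Figure D3:**
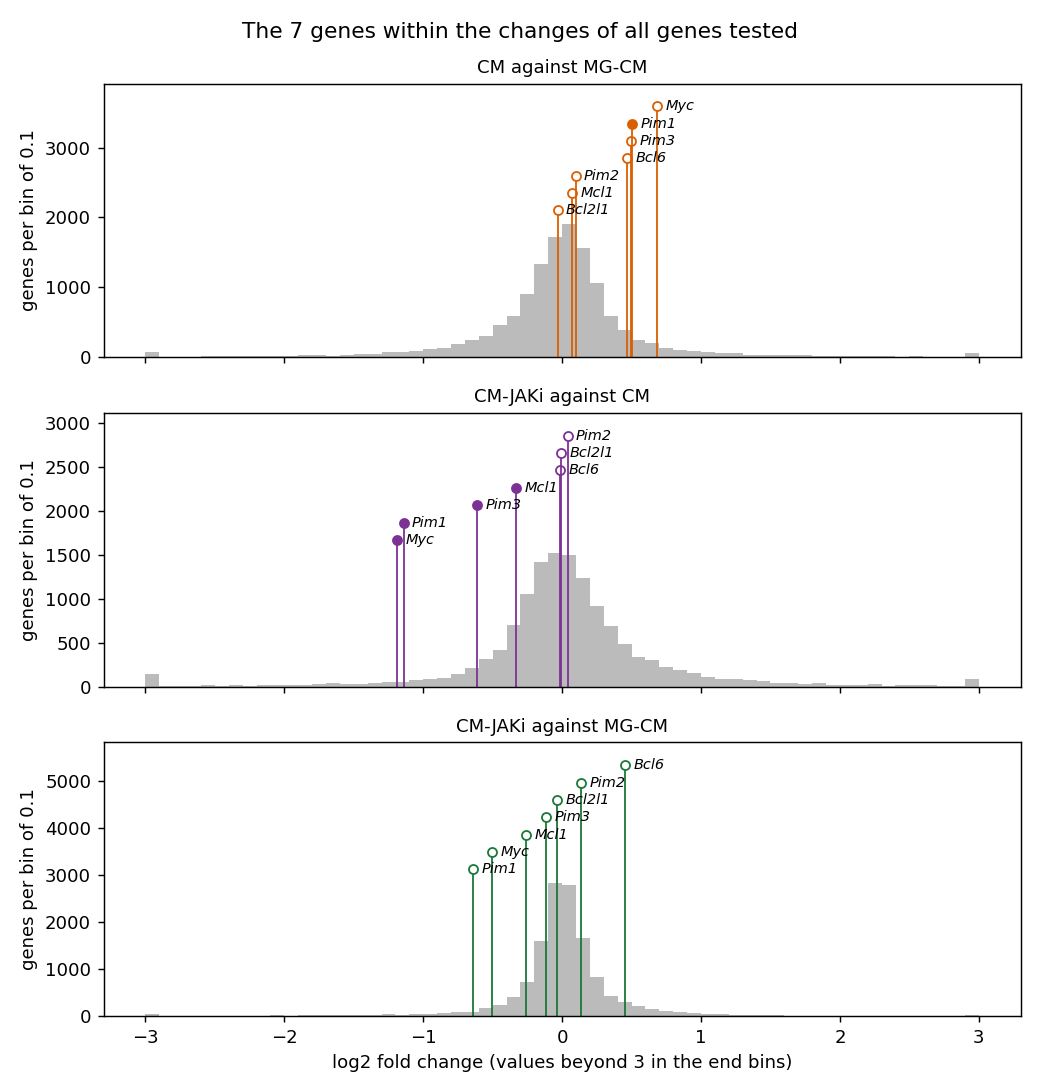
Number of genes (vertical axis) per bin of 0.1 in log2 fold change (horizontal axis) among the 13613 genes tested in each comparison, with the 7 genes marked; filled points have an adjusted p under 0.05. Pim1 and Myc lie in the lower tail of CM-JAKi against CM, at the 4.29th and 4.14th percentile.

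The percentile of each change among all genes gives its size on a common scale, as a description. In CM-JAKi against CM, Myc lay at the 4.14th percentile, Pim1 at the 4.29th, Pim3 at the 8.87th and Mcl1 at the 17.9th. In CM against MG-CM, Myc lay at the 92.9th, Pim1 at the 89.8th, Pim3 at the 89.8th and Bcl6 at the 89.0th. By p, Pim1 ranked 117th of 13613 genes in the first of these and 1080th in the second.

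The counts for gene lists stand against 10.1% of all genes called higher and 8.93% called lower in CM-JAKi against CM, and 4.85% higher and 5.39% lower in CM against MG-CM. Of 23 tested genes of JAK-STAT signalling and its feedback, 13 fell in CM-JAKi against CM and 0 rose, with 1 higher by DESeq2 and 2 by the unadjusted threshold (median -0.53). Without CM-JAKi replicate 2 the 13 became 7. The feedback inhibitor Socs3 was at 30.4, 32.6 and 34.9 CPM in CM-JAKi, against 141, 99.5 and 169 CPM in CM, and fell by 2.06 ± 0.18 (adjusted p = 0.000349). Stat2 and Socs2 fell by 2.75 ± 0.26 and 2.01 ± 0.20. In CM against MG-CM, 4 of the 23 rose and 1 fell (median -0.05). With the replicate block 8 rose and 2 fell, where 11.6% of all genes were higher and 12.8% lower. The 4 became 0 without MG-CM replicate 2 and 1 without CM replicate 1 or MG-CM replicate 3. Stat5a rose to 68.6 ± 8.23 CPM in CM, against 44.3 ± 0.701 CPM in MG-CM (adjusted p = 0.0132, 0.0584 without MG-CM replicate 2), while Socs2 fell to 8.57 ± 2.27 CPM in CM, against 23.4 ± 2.97 CPM in MG-CM (adjusted p = 0.00791). Socs3 was at 82.6, 68.0 and 77.8 CPM in MG-CM and rose by 0.84 ± 0.17 in CM (adjusted p = 0.0226), but not without CM replicate 1 (0.061) or MG-CM replicate 2 or 3 (0.0988 and 0.0596). In CM-JAKi against MG-CM 4 fell and 0 rose, where 0.720% of all genes were called lower and 0.286% higher. DESeq2 gave 8 lower (2.19% of all genes) and the unadjusted threshold 11 (5.31%), and both gave 0 higher. With the replicate block 10 fell and 0 rose, where 2.40% of all genes were lower and 1.85% higher. The log2 change of Socs2 in this comparison was -3.46 ± 0.21. The 4 became 1 without CM-JAKi replicate 2 or 3 or MG-CM replicate 3, and leaving out MG-CM replicate 1 gave 2.

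Among 12 tested relatives of Bcl2l1 and Mcl1 in the BCL2 family, 3 rose and 0 fell in CM-JAKi against CM, with 1 lower by DESeq2 and 0 by the unadjusted threshold (median 0.19). The death-promoting gene Bmf was at 55.1, 56.1 and 49.9 CPM in CM-JAKi, against 22.4, 27.4 and 31.4 CPM in CM. The groups lay far apart, and Bmf rose by 0.99 ± 0.17 (adjusted p = 0.00626). Bcl2, itself a survival gene, was at 20.6, 22.5 and 25.3 CPM in CM-JAKi, against 8.97, 13.8 and 13.6 CPM in CM, and rose by 0.91 ± 0.17 (adjusted p = 0.00845). Both calls held without each library in turn. Bok, another relative linked to cell death, rose by 0.50 ± 0.15 (adjusted p = 0.0488) and kept its call in 2 of the 9 omissions of a library, those of MG-CM replicates 1 and 2; otherwise its adjusted p was 0.0648 to 0.143. Of the same 12 genes, 2 fell and 0 rose in CM against MG-CM, with 0 higher by DESeq2 and 1 by the unadjusted threshold. These were Bok, with a change of -0.999 ± 0.15 (adjusted p = 0.0099) that held without each library, and Bmf, with a change of -0.75 ± 0.16 that was lost without MG-CM replicate 1 or 2 or CM replicate 1 or 2 (adjusted p = 0.0664, 0.101, 0.0719 and 0.0618). EdgeR called 0 of the 12 in CM-JAKi against MG-CM, where DESeq2 called 1 higher and the unadjusted threshold gave 1 higher and 1 lower.

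Among 10 tested relatives and partners of Myc, 2 rose and 0 fell in CM-JAKi against CM (0 lower by DESeq2, 1 by the unadjusted threshold and 1 by the block). Both encode MXD proteins, which compete with MYC for MAX and repress its sites. Mxd4 was at 166, 171 and 154 CPM in CM-JAKi, against 77.3, 94.7 and 89.4 CPM in CM, and rose by 0.91 ± 0.10 (adjusted p = 0.00111). Mxd1 was at 33.8, 34.6 and 30.7 CPM in CM-JAKi, against 20.3, 23.1 and 23.8 CPM in CM, and rose by 0.56 ± 0.09 (adjusted p = 0.00564). The groups of both genes were apart, and both calls held without each library in turn. Mxd4 also fell to 87.2 ± 8.92 CPM in CM, against 140 ± 11.95 CPM in MG-CM (adjusted p = 0.0099, 0.0522 without MG-CM replicate 2). It was the 1 gene called of the 10, while the block called 1 higher and 2 lower. In CM-JAKi against MG-CM edgeR and DESeq2 called 0 of the 10, and the unadjusted threshold gave 2 higher.

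Of 18 tested MYC targets of ribosome production and growth, 3 fell and 0 rose in CM-JAKi against CM (median -0.38). With the block 6 fell, where 15.6% of all genes were lower. DESeq2 gave 5 lower (11.7% of all genes) and the unadjusted threshold 8 (16.2%), and both gave 0 higher. The 3 became 0 without CM replicate 1 or CM-JAKi replicate 2, and 1 without CM-JAKi replicate 1, CM replicate 3 or MG-CM replicate 2 or 3. Gnl3, a nucleolar GTPase, fell to 54.9 ± 11.8 CPM in CM-JAKi, against 90.3 ± 17.2 CPM in CM (adjusted p = 0.0261), but not without CM replicate 1 (0.0722), CM-JAKi replicate 1 (0.0607) or CM-JAKi replicate 2 (0.0972). The nucleolar genes Nop58 and Ncl fell too, and were called in 2 and 3 of the 9 omissions of a library, with an adjusted p up to 0.134 and 0.142. For CM against MG-CM edgeR and DESeq2 called 0 of the 18, while the unadjusted threshold gave 2 higher and the block 1. For CM-JAKi against MG-CM the list had 0 calls by edgeR, by DESeq2 and by the unadjusted threshold. Of 12 proliferation genes 1 fell and 0 rose in CM-JAKi against CM, near the 8.93% of all genes called lower. DESeq2 and the unadjusted threshold each gave 4 lower and 0 higher, against 11.7% and 16.2% of all genes lower. With the block 5 fell and 1 rose, against 15.6% of all genes lower and 18.6% higher. Without the block, leaving out CM-JAKi replicate 1 gave 4 lower. The list summed to 3201 to 3913 CPM in CM-JAKi, 3820 to 4236 CPM in CM and 3701 to 3767 CPM in MG-CM. The 1 gene was Bub1, a mitotic kinase, at 72.4 ± 3.12 CPM in CM-JAKi and 95.7 ± 10.9 CPM in CM (adjusted p = 0.022, lost without CM-JAKi replicate 2 or 3 or CM replicate 3, with 0.0851, 0.0549 and 0.0527). EdgeR called 0 of the 12 in CM against MG-CM, with 1 higher by DESeq2 and 2 by the unadjusted threshold, and in CM-JAKi against MG-CM all of these counts were 0.

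Of 12 tested genes whose protein products PIM kinases phosphorylate, Cdkn1b was the 1 called, higher in CM-JAKi against CM, where 10.1% of all genes were higher, and lower in CM against MG-CM, where 5.39% were lower. A single call among 12 is near these shares and describes Cdkn1b, not the list. Cdkn1b encodes p27, an inhibitor of cyclin-dependent kinases. It was at 147, 140 and 129 CPM in CM-JAKi, against 80.9, 91.9 and 103 CPM in CM, and rose by 0.59 ± 0.11 (adjusted p = 0.0091), a call that held without each library. It fell to 92.0 ± 11.1 CPM in CM, against 140 ± 12.01 CPM in MG-CM (adjusted p = 0.016, 0.0766 without MG-CM replicate 2). With the block 4 of the 12 were higher and 1 lower in CM-JAKi against CM (18.6% and 15.6% of all genes). In CM against MG-CM the block gave 1 higher and 3 lower (11.6% and 12.8%). DESeq2 gave 2 higher and 0 lower in CM-JAKi against CM, and the unadjusted threshold 4 and 0. In CM against MG-CM DESeq2 gave 0 higher and 2 lower, and the unadjusted threshold 0 and 3. EdgeR called 0 of the 12 in CM-JAKi against MG-CM, and so did DESeq2 and the unadjusted threshold.

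**Figure D4:**
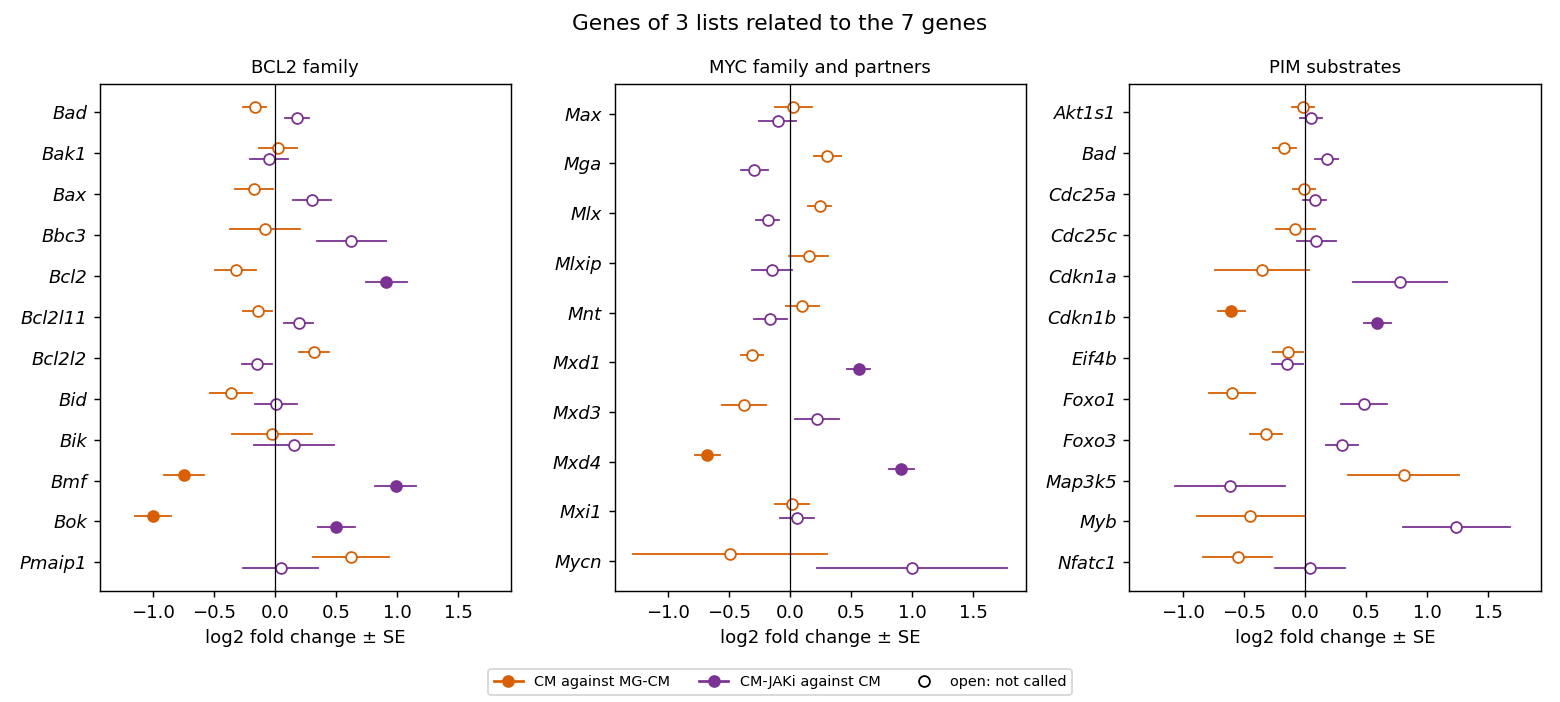
Log2 fold change ± SE (horizontal axes) of the tested genes of the BCL2 family, of relatives and partners of Myc, and of PIM substrates, in CM against MG-CM and in CM-JAKi against CM, which share the CM libraries; filled points have an adjusted p under 0.05. Bmf, Bcl2, Bok, Mxd4, Mxd1 and Cdkn1b are filled above 0 in CM-JAKi against CM.

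Of 9 tested co-repressors and relatives of Bcl6, Prdm1 was the 1 called. It encodes BLIMP1, a repressor that opposes BCL6 in lymphocytes. Prdm1 was at 2.15, 1.17 and 1.97 CPM in CM-JAKi and at 18.9, 3.94 and 8.89 CPM in CM, against 1.61, 0.474 and 0.682 CPM in MG-CM. The CM libraries were above all others but spread widely, with PSC4 highest. Prdm1 rose by 3.51 ± 0.65 in CM against MG-CM (adjusted p = 0.0174), but not without MG-CM replicate 2 or 3 (0.0779 and 0.0557). It fell by 2.58 ± 0.62 in CM-JAKi against CM (adjusted p = 0.0231), but not without CM replicate 1 (0.0654) or CM-JAKi replicate 2 or 3 (0.0895 and 0.0625). EdgeR, DESeq2 and the unadjusted threshold called 0 of the 9 in CM-JAKi against MG-CM.

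The genes with the level pattern most like each member were taken as the 5 highest Pearson correlations of log2 CPM over the 9 libraries among 9470 other genes (9471 for Pim2), those with a mean log2 CPM of 3 or more and a symbol that is not a clone or model number. The points share lines and media, so these values describe the libraries. For Pim1 they were Suv39h2, a histone methyltransferase (r = 0.995), Il4ra, a cytokine receptor subunit (0.991), Scaf11 (0.990), Sbno2 (0.987) and Flot1 (0.987). For Myc they were Noc4l, a ribosome assembly factor (0.992), Rin1 (0.980), Kri1 (0.9753), Ubqln4 (0.973) and Asns, asparagine synthetase (0.973). Among the 5 for Pim3 were Afg3l2 (0.980) and Nip7 (0.979), for Mcl1 B3gnt2 (0.965), for Bcl6 Twist2 (0.946), for Bcl2l1 Dus3l (0.961) and Dohh (0.941), and for Pim2 Jund (0.941) and Gfpt1 (0.845). Between members, Pim3 correlated with Myc at 0.90, Pim1 with Myc at 0.86, with Mcl1 at 0.82, with Pim3 at 0.75 and with Bcl6 at 0.075, and Bcl6 with Bcl2l1 at -0.62.

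**Figure D5:**
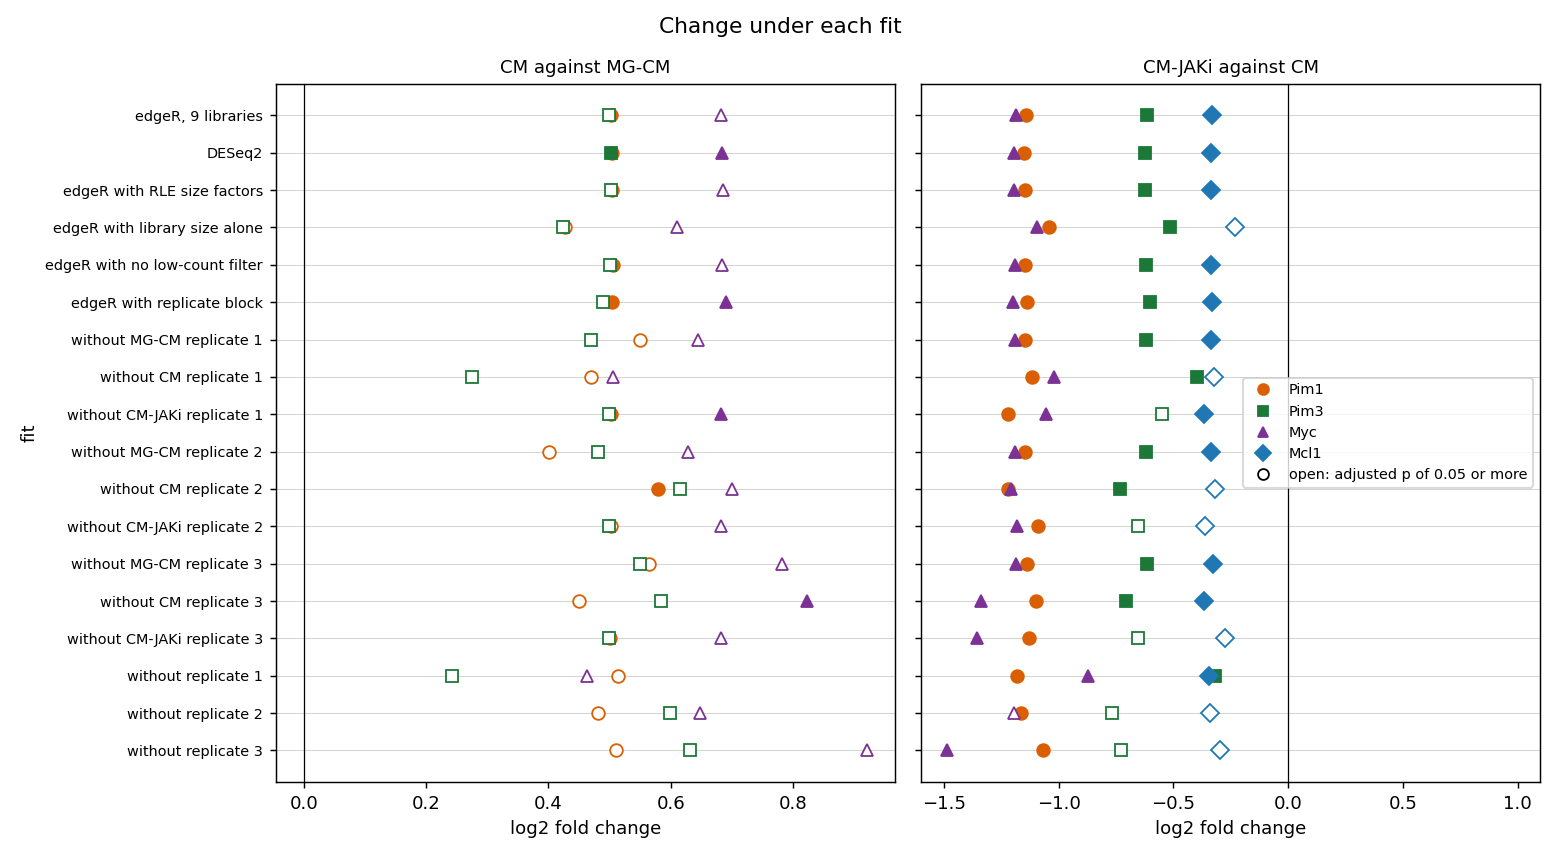
Log2 fold change (horizontal axes) of Pim1, Pim3 and Myc in CM against MG-CM, and of these and Mcl1 in CM-JAKi against CM, under the fit of all 9 libraries and each of 17 others (vertical axis); filled points have an adjusted p under 0.05. Every value keeps its sign, and Pim1 is filled in every fit of CM-JAKi against CM and in some of CM against MG-CM.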

How the data were processed

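RNA of 9 stellate cell libraries, 3 per group, was made into strand-specific, ribosomal RNA-depleted libraries, per the labels' protocols. Per the submitters' processing notes the tools were STAR (2.5.1b), RSEM (1.2.29) and DESeq2, with mm9 and NCBIM37 as builds; what each was used for is not given in the sources used here. The deposited table held whole numbers with differing totals, and since RSEM is named they were read as rounded expected counts, unscaled. Near-identical genes share estimated counts. Groups follow the sample titles. In R 4.3.3, edgeR 4.0.16 filtered genes (filterByExpr, minimum count 10, minimum total 15), scaled by TMM and fitted 1 term per group with a robust quasi-likelihood model, as no paired model is stated. Standard errors are the absolute log2 fold change over the root of F, and intervals are 95% and unadjusted. Log2 CPM used 2 as prior count. The script was checked on simulated counts.

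Libraries of the same number share a line and, for CM and CM-JAKi, a medium source. Their deviations from group means correlated at 0.291 to 0.680 over 9 pairs, and those of different numbers at -0.536 to 0.279 over 18 pairs. Between PSC5 replicates 2 and 3 the values were 0.00871 to 0.279, below but near the lowest value of the same number. Deviations from a mean of 3 libraries sum to 0, which pushes the values of different numbers down. Sharing a number and sharing a line could thus not be clearly separated by these values, and a replicate block was an alternative. The others were DESeq2 1.42.0, RLE scaling, library size alone, no filter, and omission of each library or replicate number. Replicates of a group differed beyond counting noise (chi-square per degree of freedom 16.0 to 115). P-values reflect the spread between these cultures.

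The members, gene lists and tests were chosen with earlier results of these data known. All 7 members were named, with up to 4 genes per list and comparison with the smallest p, and the 5 genes most like each member; a few genes under this rule are not reported here. RefSeq promoter sequences are of GRCm38.p6.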

Additional observations from a re-analysis of the deposited data

Results flagged for a closer look

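Pim2, which was called in no fit, had log2 ratios of opposite sign in the 2 lines in both comparisons of CM-JAKi, a difference that was not tested. In CM-JAKi against CM the ratio was -0.16 in the PSC4 pair and 0.09 and 0.18 in the PSC5 pairs. In CM-JAKi against MG-CM it was -0.054 in the PSC4 pair and 0.23 and 0.22 in the PSC5 pairs. In CM against MG-CM it was 0.10 in the PSC4 pair, between the 0.14 and 0.045 of the PSC5 pairs. The counting error of a single Pim2 value was up to 8.77%, and a ratio carries that of 2 values. Both comparisons of CM-JAKi share its libraries.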

How the results depend on the processing

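Over the 17 other fits the members' changes kept their sign in each comparison except those of Bcl2l1, Bcl6 and Pim2 named here, none of which was called. In CM-JAKi against CM, Bcl6 changed by 0.091 with library size alone, 0.013 with the replicate block and -0.18 to 0.29 with libraries left out, Bcl2l1 by 0.087 with library size alone and -0.085 to 0.083 with libraries left out, and Pim2 by -0.032 to 0.14 with libraries left out. With libraries left out Bcl2l1 changed by -0.12 to 0.088 in CM against MG-CM and -0.13 to 0.059 in CM-JAKi against MG-CM.

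Counts of calls moved more. In CM against MG-CM, 660 genes were higher and 734 lower, against 1192 and 1294 by DESeq2, 1577 and 1748 with the replicate block, and 495 and 887 with library size alone. The members called higher numbered 1, against 3, 2 and 0 in these fits. Leaving libraries out gave 6 to 837 genes higher, 2 to 876 lower and 0 to 2 members. In CM-JAKi against CM, 1369 genes were higher and 1216 lower, against 2529 and 2126 with the block and 1853 and 865 with library size alone. The 4 members called lower became 1 to 4 with libraries left out, where 76 to 1562 genes were higher and 180 to 1408 lower. In CM-JAKi against MG-CM, 39 genes were higher and 98 lower, against 194 and 310 by DESeq2 and 252 and 327 with the block, where 2 and 1 members were lower. Leaving libraries out gave 0 to 216 genes higher, 0 to 249 lower and 0 to 1 members lower. Leaving out all of replicate 2 was the smallest fit in CM-JAKi against CM and has 6 of the 9 libraries. Beside Myc in CM against MG-CM and Pim1 in CM-JAKi against MG-CM, the block changed no other call of a member. Without all of replicate 1, 2 or 3, Pim1 in CM against MG-CM had an edgeR adjusted p of 0.0612, 0.194 and 0.199. Without all of replicate 2 or 3, Pim3 in CM-JAKi against CM had 0.143 and 0.129, and Mcl1 0.24 and 0.202. Depth limits Pim2 most, with 130 to 180 counts per library.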
